A study of Mus musculus with 14 samples.

Results

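The arrays labelled VILI PBEF+/- (replicates 1 to 3, lungs ventilated for 4 hours) were compared with those labelled PBEF+/- (replicates 1 to 3, labelled as not ventilated), 6 of the 14 arrays in the series, chosen by their titles alone. All hold total RNA of whole mouse lung on Affymetrix mouse arrays, and the labels give a tidal volume of 40 ml/kg for the ventilated animals, whereas the series text gives 30 ml/kg and recombinant human PBEF placed in the trachea. The other groups are Control (n = 4, PBS) and VALI (n = 4, the same ventilation). PBEF+/- animals were 18 to 22 weeks old, as were Control and VALI animals, but VILI PBEF+/- animals were 8 to 12 weeks old. Age and ventilation therefore cannot be told apart in the comparison. The labels do not say whether PBEF+/- is a genotype or the protein given. They name no strain, call every array the lung of a control, and do not say that each array is a separate animal. The p-values thus measure only the spread between these arrays.

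PBEF, also called visfatin, is the product of Nampt, which makes nicotinamide mononucleotide in the salvage route to NAD and also acts outside the cell as a cytokine-like protein. Ventilation at a high tidal volume stretches the alveolar wall. Stretched lung cells are known to release interleukin-6 and CXC chemokines, which draw neutrophils into the air spaces, and to switch on immediate early, oxidative stress and heat shock genes.

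The library labelled PBEF+/- replicate 3 stood apart from its group. It had an Il6 log2 signal of 10.87, against 2.10 and 2.56 in PBEF+/- replicates 1 and 2 and 12.75, 12.33 and 10.32 in VILI PBEF+/-. Over the 11360 genes tested it correlated at r = 0.989, 0.985 and 0.984 with the 3 ventilated arrays. With PBEF+/- replicates 1 and 2 it correlated at 0.951 and 0.928 (a description over genes of single arrays). BC018473, a long non-coding RNA, and its neighbouring gene St6galnac1, a sialyltransferase, split the 6 arrays in another way. BC018473 was at 9.51 and 8.30 in PBEF+/- replicates 1 and 2 and at 11.04 in VILI PBEF+/- replicate 3, but at 2.04 in PBEF+/- replicate 3 and at 2.55 and 2.57 in VILI PBEF+/- replicates 1 and 2. St6galnac1 had the same order, at 7.32, 5.54 and 7.93 in the former arrays and 2.20, 2.09 and 2.22 in the latter. In the other groups BC018473 was at 9.59 to 10.60 in VALI and at 2.09 to 2.49 in Control, with no overlap. PBEF+/- replicate 2 had the transcript pattern of a male (Xist 2.63, Eif2s3y 10.94) and the other 5 arrays that of females. Whether the labels of PBEF+/- replicate 3 and VILI PBEF+/- replicate 3 are right was not tested. Each group mean below is that of the libraries so labelled. Over the tested genes VILI PBEF+/- replicate 3 correlated at r = 0.982 and 0.976 with replicates 1 and 2 of its own group. Its correlations with PBEF+/- replicates 1 and 2 were 0.951 and 0.929. Why these arrays differ was not tested. Counts of genes that passed are given as labelled and without PBEF+/- replicate 3, and a single difference is as labelled unless stated. The array was left out because of its own values, so counts and adjusted p-values without it describe these arrays alone and support nothing further.

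The promoters shown here belong to genes that stand for 3 outcomes described below: Cxcl2, whose groups stayed apart as labelled, Il6, whose difference depended on replicate 3, and Hspe1, for which replicate 3 stayed with its label. Each is the 250 bases before the annotated start, 5′ to 3′ on the gene's strand, from RefSeq (GRCm38.p6). Capitals mark matches to an NF-kB site (GGG, any 2 bases, TTTCC) in Cxcl2, chr5:90903649-90903898 on the plus strand, and in Il6, chr5:30012864-30013113 on the plus strand. In Hspe1, chr1:55087898-55088147 on the plus strand, they mark matches to a heat shock element (GAA, any 2 bases, TTC, any 2 bases, GAA).
Cxcl2: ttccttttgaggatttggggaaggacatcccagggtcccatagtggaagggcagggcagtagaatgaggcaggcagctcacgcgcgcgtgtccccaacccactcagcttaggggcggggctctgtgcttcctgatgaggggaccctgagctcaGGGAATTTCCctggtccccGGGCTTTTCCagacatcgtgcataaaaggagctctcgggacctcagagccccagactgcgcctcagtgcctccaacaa
Il6: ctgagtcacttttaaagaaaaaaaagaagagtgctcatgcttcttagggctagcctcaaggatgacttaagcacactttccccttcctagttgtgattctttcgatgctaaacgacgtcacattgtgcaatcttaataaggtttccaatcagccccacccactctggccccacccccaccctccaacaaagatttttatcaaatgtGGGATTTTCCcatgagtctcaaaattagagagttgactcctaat
Hspe1: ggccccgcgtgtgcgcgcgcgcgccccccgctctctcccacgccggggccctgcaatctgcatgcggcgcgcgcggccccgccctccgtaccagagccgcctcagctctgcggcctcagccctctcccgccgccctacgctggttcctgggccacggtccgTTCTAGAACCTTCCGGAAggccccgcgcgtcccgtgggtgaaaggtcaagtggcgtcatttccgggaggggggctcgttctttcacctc
Both strands were searched. The NF-kB letters were found 97 and 78 bases before the start of Cxcl2 and 44 bases before that of Il6, and the overlapping heat shock letters 89 and 84 bases before that of Hspe1. Of the 9188 tested genes with a promoter in the table, 1.76% held the NF-kB letters and 0.457% those of the heat shock element. Among the neutrophil CXC chemokines it was 3 of 6 (Cxcl1, Cxcl2 and Cxcl3) for the NF-kB letters, and among the heat shock proteins 2 of 10 (Hspd1 and Hspe1, which are transcribed from a shared head-to-head promoter) for the heat shock element. These are matches of letters and not measured sites.

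As labelled, no gene passed: 0 of 11360 (0%) reached an adjusted p of 0.05 in limma with Benjamini-Hochberg adjustment, the smallest adjusted p was 0.110, and 1062 genes were higher and 1293 lower at an unadjusted p under 0.05. In 962 genes (8.47%) all 3 VILI PBEF+/- arrays lay above all 3 PBEF+/- arrays, and in 1230 (10.8%) all lay below; these are called apart here. Without PBEF+/- replicate 3, 2157 genes (19%) passed, 994 higher (8.75%) and 1163 lower (10.2%), of which 927 differed by at least 2-fold. That count rests on the arrays left: it was 63 with PBEF+/- replicate 2 left out too, 567 with VILI PBEF+/- replicate 1 and 535 with VILI PBEF+/- replicate 2 left out too.

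The question of which genes depend on PBEF+/- replicate 3 was answered for those 2157 genes. In 1261 of them (58.5%), 552 higher (55.5% of the genes that passed higher) and 709 lower (61% of those that passed lower), the value of replicate 3 was at or beyond that of the nearest ventilated array, so that the groups overlapped as labelled. In the other 896 (442 higher and 454 lower) it fell short of the ventilated range. It was nearer to the mean of replicates 1 and 2 than to the ventilated mean in 235 genes, and less than 0.25 of the way from the former to the latter in 64. On a scale with 0 at the mean of PBEF+/- replicates 1 and 2 and 1 at the VILI PBEF+/- mean, the median position of replicate 3 over the 2157 genes was 0.858, with quartiles of 0.684 and 1.024. VALI replicates 1 to 3, which do not set the scale, lay at 0.742, 0.759 and 0.714, VALI replicate 4 at 0.160 and the Control arrays between 0.082 and 0.255.

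**Figure D1:**
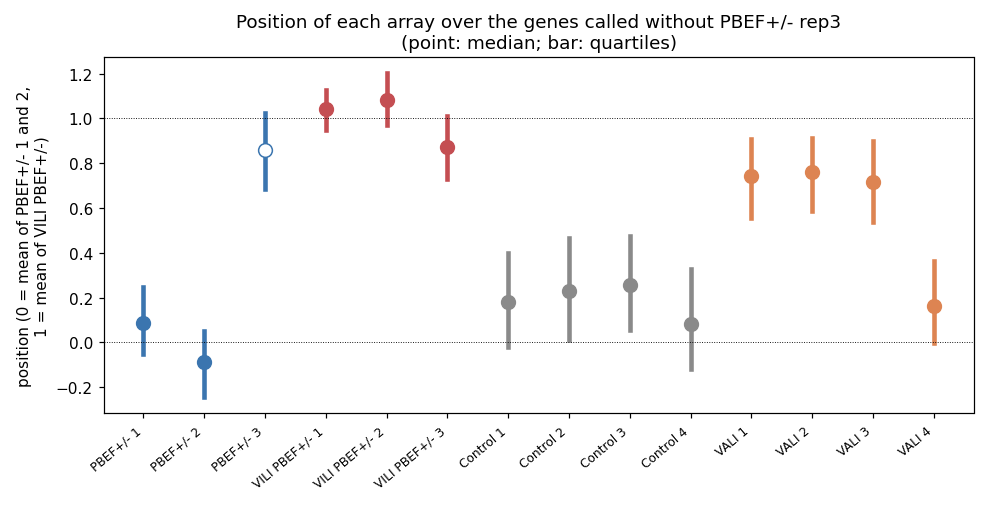
Position of each of the 14 arrays over the 2157 genes called without PBEF+/- replicate 3, from 0 (mean of PBEF+/- replicates 1 and 2) to 1 (mean of VILI PBEF+/-). Points are medians and bars run between the quartiles. PBEF+/- replicate 3 (open point, 0.858) lies beside VILI PBEF+/- replicate 3 (0.872). The positions of PBEF+/- replicates 1 and 2 and of the VILI PBEF+/- arrays are fixed in part by how the genes were chosen and the scale was set.

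Of 12 chemokines outside the neutrophil CXC group, 4 were apart and higher and 1 was apart and lower as labelled, against 8.47% and 10.8% of all genes. Without replicate 3, 8 passed higher (8.75% of all genes did), 4 of which depended on it (55.5% of all genes passing higher did). Ccl2, which draws monocytes through CCR2, was at 3.23, 3.73 and 6.92 in PBEF+/- and at 10.94, 10.65 and 8.08 in VILI PBEF+/-, a log2 difference of 5.27 ± 0.90 (SE, n = 3 and 3; adjusted p = 0.110, limma) as labelled and 6.41 ± 0.73 without replicate 3. The first 2 values are at the Control level of 3.48 to 3.72 and below the array medians, where the background is unknown, so no fold is given. The same limit holds for every gene below with values under the array medians. Replicate 3 was the highest PBEF+/- array and VILI PBEF+/- replicate 3 the lowest ventilated array, and the groups did not overlap. Ccl7, a neighbour of Ccl2 with a similar role, was at 2.82, 2.91 and 4.90 against 6.93, 7.55 and 5.12. Their VALI minus Control differences were 1.18 and 0.36, and the interaction, the difference between both ventilation differences, was 4.08 for Ccl2 and 2.63 for Ccl7 (unadjusted p = 0.0045 and 0.0065, adjusted p = 0.817 and 0.824, limma). Without replicate 3 these were 5.23 and 3.31 (adjusted p = 0.278 and 0.305, limma). VALI replicate 4, which is part of these values, was at 3.67 for Ccl2, against 5.16, 4.54 and 5.67 in VALI replicates 1 to 3.

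Of 7 neutrophil CXC chemokines, 4 were apart and higher as labelled, against 8.47% of all genes. The same 4, Cxcl1, Cxcl2, Cxcl3 and Cxcl5, passed without replicate 3 and none depended on it. Cxcl2, a ligand of the neutrophil receptor Cxcr2, was at 3.39, 2.49 and 8.68 in PBEF+/- and at 11.11, 10.37 and 8.82 in VILI PBEF+/-. Its difference of 5.25 ± 1.27 (SE; 7.16 without replicate 3) had an adjusted p of 0.127 as labelled, and replicate 3 came within 0.148 of the lowest ventilated array, so the gap between the groups was narrow. Cxcl1 was at 5.97, 5.65 and 9.67 against 12.09, 11.26 and 10.03. Ppbp, a platelet chemokine, was at 9.19, 11.24 and 9.44 against 9.29, 8.47 and 6.07, and its groups overlapped. The median of the list was 2.70 as labelled and 3.47 without replicate 3, beside -0.05 and -0.07 for all genes.

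**Figure D2:**
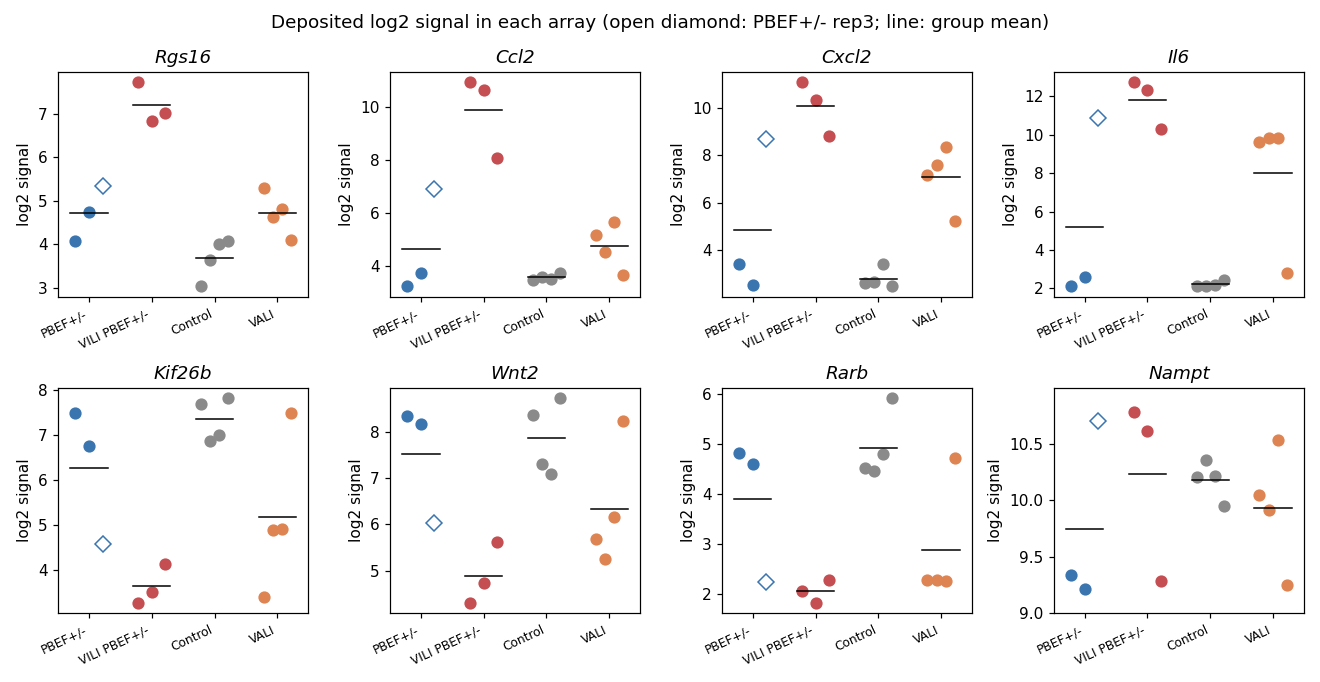
Log2 signal of 8 genes in each array of the 4 groups, with a line at each group mean and PBEF+/- replicate 3 as an open diamond. Rgs16 and Ccl2 were above all other arrays in VILI PBEF+/-, replicate 3 lies among or beside the ventilated arrays for Il6, Cxcl2 and Rarb, and Nampt has no such order.

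The smallest p as labelled was that of Rgs16, an inhibitor of G protein signalling. It was at 4.07, 4.75 and 5.33 in PBEF+/- and at 7.73, 6.84 and 7.03 in VILI PBEF+/-, a difference of 2.48 ± 0.39 (SE; adjusted p = 0.110, limma) as labelled and 2.79 without replicate 3. The ventilated arrays were above all 11 other arrays of the series, as they were for 275 of 11360 genes (2.42%), and below all others for 462 (4.07%). Csf1, the growth factor of macrophages, was at 9.33, 9.41 and 9.57 against 10.36, 10.39 and 10.14, and Tnfsf9, the ligand of the T cell receptor 4-1BB, at 3.24, 4.63 and 6.95 against 9.24, 9.55 and 8.26. Both were also above all 11 other arrays. Rab3a, a GTPase of vesicle release, was at 10.63, 10.66 and 10.64 against 9.95, 10.13 and 9.97 on its probe set with the highest mean. On its second probe set (7.99, 7.06 and 7.37 against 6.81, 6.26 and 7.18) the groups overlapped. Chd1, Csf1, Hspa8, Pik3ip1 and Zfp319, all named here, likewise had a further probe set, above the median of all 14 arrays, on which the groups overlapped.

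Il6, the cytokine that drives the acute phase response, depended on replicate 3, and its targets did so in part. The Il6 difference as labelled was 6.62 ± 2.15 (SE; adjusted p = 0.160, limma), with a PBEF+/- SD of 4.94, and 6.18 with values below 3 set to 3. Without replicate 3 the PBEF+/- values left lie under 3, near the Control range of 2.09 to 2.45, and no size is given. Among 15 targets of IL-6 and STAT3, 7 were apart and higher as labelled (8.47% of all genes were). Without replicate 3, 11 passed higher (8.75% of all genes did), of which 5 depended on it (55.5% of all genes passing higher did). The list median was 1.96 as labelled, 2.63 without replicate 3 and 1.70 in VALI minus Control. Saa3, an acute phase protein, was at 8.32, 7.40 and 9.53 in PBEF+/- and at 12.70, 12.79 and 10.36 in VILI PBEF+/-. Socs3, which inhibits STAT3, was at 10.47, 10.89 and 13.61 against 14.62, 14.73 and 14.10, and for both genes replicate 3 stayed below the ventilated arrays. Timp1, an inhibitor of metalloproteinases, was at 5.33, 3.12 and 8.31 against 9.28, 9.90 and 8.13, and there replicate 3 lay within the ventilated range. Among the 7 cytokines and receptors of the IL-6 family, Lif, Osmr and Il6st were apart and higher (8.47% of all genes were) and Il6 overlapped. Without replicate 3, 4 of the 7 passed higher (8.75% of all genes did), of which 1 depended on it (55.5% of all genes passing higher did).

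The immediate early and AP-1 genes, transcribed within minutes of a stimulus, were apart and higher in 12 of 22 (8.47% of all genes were). Without replicate 3, 16 passed higher (8.75% of all genes did), 5 of them dependent on it (55.5% of all genes passing higher were). Junb was at 9.38, 8.40 and 11.71 in PBEF+/- and at 12.78, 12.69 and 12.20 in VILI PBEF+/-, a difference of 2.72 ± 0.60 (SE) as labelled and 3.66 without replicate 3. Fosb was at 5.69, 4.90 and 9.18 against 10.97, 11.05 and 9.55, again with replicate 3 below the ventilated range. Egr2 was at 8.77, 9.28 and 11.47 against 12.60, 12.32 and 11.35, with replicate 3 inside it. Of 13 NF-kB subunits and feedback genes 10 passed higher without the array (8.75% of all genes did), 7 of those depended on it (55.5% of all genes passing higher did), and 3 were apart as labelled, among them Icam1, the adhesion molecule that neutrophils bind (13.30, 13.13 and 13.49 against 13.96, 14.02 and 13.58). Of 9 genes of the interleukin-1 family and TNF, 8 passed higher and 6 depended on the array. Has1, which makes hyaluronan, was apart, at 2.23, 2.36 and 8.66 against 10.01, 10.21 and 8.96. Its difference was 5.31 as labelled and 4.84 with values below 3 set to 3.

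The heat shock proteins had the fewest genes that depended on replicate 3 among the lists with over 10 genes passing. They are chaperones that refold or hold damaged proteins. Their mean deviation from the 14-array means was -0.809, -1.221 and 0.05 in PBEF+/- and 0.485, 0.419 and 1.575 in VILI PBEF+/-. Replicate 3 thus lay between the other PBEF+/- arrays and the ventilated arrays. On the same scale Control replicates 1 to 4 were at 0.47, -0.177, -0.15 and -0.463, and VALI replicates 1 to 4 at -0.314, 0.113, 0.556 and -0.535. PBEF+/- replicates 1 and 2 were therefore below every Control array. VILI PBEF+/- replicates 1 and 2 were beside Control replicate 1 and below VALI replicate 3. All 12 tested were higher at an unadjusted p under 0.05 as labelled, 11 were apart (8.47% of all genes were), and 11 passed higher without replicate 3, of which only Hspa1a depended on it. With a further array left out besides replicate 3, between 1 (PBEF+/- replicate 2) and 12 passed. The list median was 1.27 as labelled and 1.49 without replicate 3, against 0.04 in VALI minus Control. Hspe1, the mitochondrial co-chaperonin, was at 11.54, 11.53 and 11.71 in PBEF+/- and at 12.47, 12.38 and 13.64 in VILI PBEF+/-, a difference of 1.23 ± 0.30 (SE; adjusted p = 0.127, limma) as labelled and 1.29 without replicate 3. Here replicate 3 was beside replicates 1 and 2, at position 0.14. Hspa8, the constitutive HSC70, was at 14.12, 14.43 and 14.51 against 14.78, 14.87 and 15.28. Hspb1, a small heat shock protein, was at 12.65, 11.60 and 13.24 against 13.60, 13.75 and 14.04, and replicate 3 was again the highest of its group and below the others.

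VILI PBEF+/- replicate 3 was the highest array in 11 of the 12 genes. The share of all tested genes in which it was highest was not counted, so nothing further is read from that count. Without this array the list median as labelled was 0.91, and 11 genes were still apart. Hsph1, a co-chaperone of HSP70, was at 10.91, 9.77 and 11.29 in PBEF+/- and at 12.25, 12.15 and 14.16 in VILI PBEF+/-, while Control lay between 11.20 and 12.86 and VALI between 10.51 and 12.52. The Control arrays thus overlapped the ventilated PBEF+/- arrays, and PBEF+/- replicates 1 and 2 were below every Control array while replicate 3 was within their range. Its interaction was 3.06 (unadjusted p = 0.003, adjusted p = 0.817, limma) and 3.37 without replicate 3 (adjusted p = 0.31, limma). As labelled, 9 of the 12 genes had an unadjusted interaction p under 0.05, as did 634 of all 11360 genes (5.58%), with 0 (0%) passing after adjustment; without replicate 3 it was 12 of 12 and 1367 of all genes (12%), again with 0 passing. Hspa1a and Hspa1b, near-identical copies whose probes may not tell them apart, followed replicate 3 more closely. Hspa1a was at 8.04, 7.53 and 11.10 against 11.41, 10.48 and 13.76, with Control replicate 1 at 11.88 and VALI replicate 3 at 12.08.

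**Figure D3:**
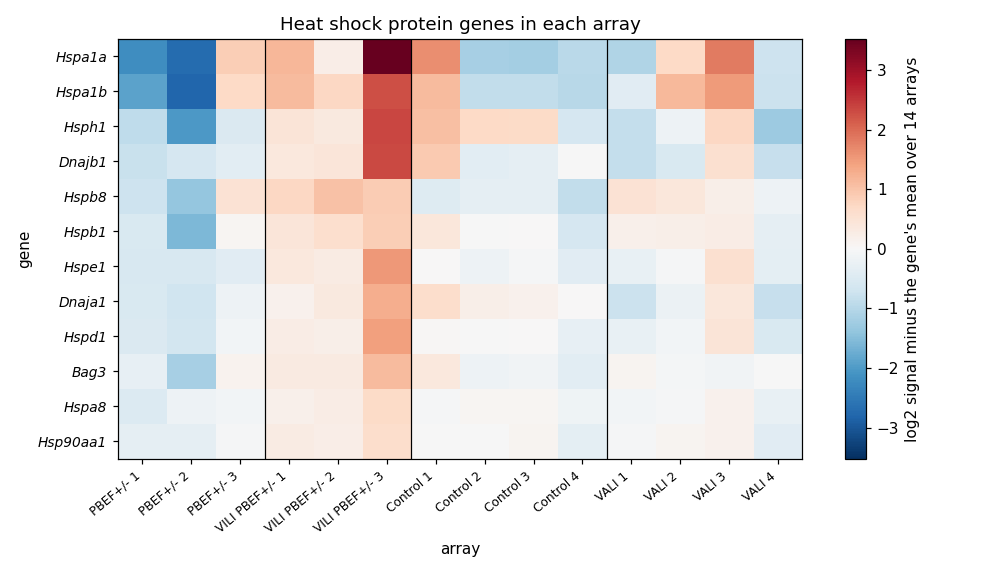
Heat shock protein genes in each of the 14 arrays, as log2 signal minus the gene's mean over the 14 arrays; black lines separate PBEF+/-, VILI PBEF+/-, Control and VALI. VILI PBEF+/- arrays are above PBEF+/- arrays in 11 of 12 genes (8.47% of all genes were). VILI PBEF+/- replicate 3 is the highest array in 11 of 12, a count not made over all genes. Control replicate 1 and VALI replicate 3 are high for Hspa1a and Hspa1b.

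Other stress and growth lists had lower medians than the chemokines. NRF2 targets, which detoxify oxidants, passed higher in 8 of 15 without replicate 3, of which 5 depended on it. Hmox1, heme oxygenase, was at 7.25, 7.57 and 12.05 in PBEF+/- and at 12.12, 12.23 and 12.57 in VILI PBEF+/-, so replicate 3 was 0.074 below the lowest ventilated array. Txnrd1, thioredoxin reductase, was at 11.16, 11.30 and 13.34 against 13.32, 13.36 and 13.18, and replicate 3 lay inside it. Among 14 ATF4 targets 8 passed higher and 5 depended on replicate 3, and among 15 ribosome biogenesis genes 11 passed higher and 4 depended on it, beside 8.75% of all genes passing higher and 55.5% of those depending on it. Gnl3, a nucleolar GTPase, was at 9.59, 9.49 and 10.80 against 11.02, 11.18 and 10.93. The metallothioneins Mt1 and Mt2 and the zinc importer Slc39a14 all passed higher without replicate 3 and all depended on it, although Mt1 was apart on its second probe set; Mt2 was at 10.17, 9.88 and 13.98 against 14.11, 14.21 and 13.62. The endoplasmic reticulum chaperones, of which 1 of 12 passed, had a median of 0.28 in both settings.

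**Figure D4:**
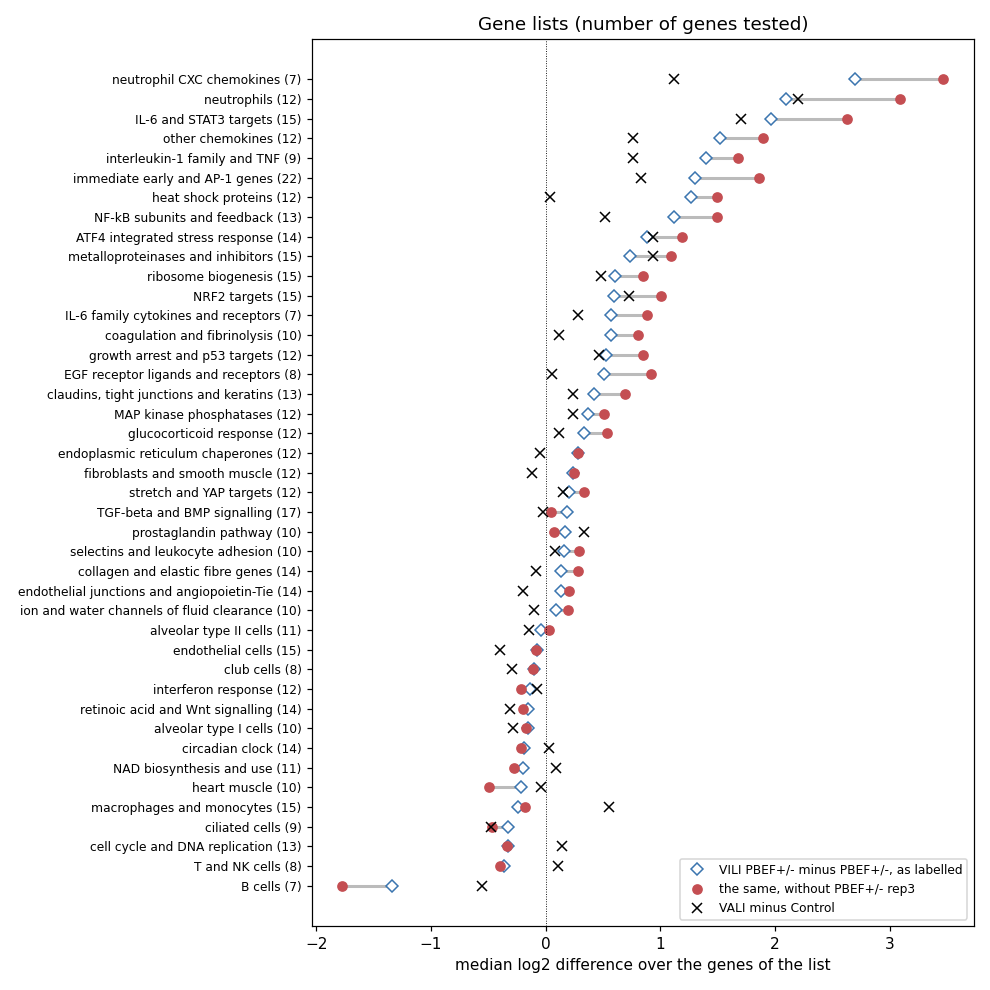
Median log2 difference over the tested genes of each list with at least 7 genes: VILI PBEF+/- minus PBEF+/- as labelled (diamonds), the same without PBEF+/- replicate 3 (points), and VALI minus Control (crosses). Leaving out replicate 3 moves the inflammatory lists away from 0, whereas the heat shock proteins, at 1.27 and 1.49, lie far from their VALI minus Control median of 0.04.

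The genes most clearly tied to replicate 3 had the ventilated level there and another level in replicates 1 and 2. Cldn4, a tight junction claudin, was at 3.14, 3.22 and 10.37 in PBEF+/- and at 9.81, 9.78 and 8.04 in VILI PBEF+/-. Krt8 and Krt18, keratins of simple epithelia, were at 14.21 and 14.10 in replicate 3, inside or beyond the ventilated ranges of 13.79 to 14.24 and 13.73 to 14.11. Among lower genes, Cckar, the cholecystokinin A receptor, was at 11.40, 11.35 and 6.47 against 6.60, 6.06 and 7.27. Rarb, a retinoic acid receptor, was at 4.83, 4.62 and 2.25 against 2.06, 1.82 and 2.27. Wdr19, a ciliary transport protein, was at 6.01, 6.01 and 3.23 against 3.03, 3.26 and 3.23. For each, the difference as labelled had an adjusted p above 0.05. The 2 remaining PBEF+/- arrays were close together except for Krt8 (12.37 and 11.16) and Krt18 (12.31 and 11.56).

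Other genes kept replicate 3 with its label. These were picked after their values were seen, from the 64 genes in which it lay less than 0.25 of the way to the ventilated mean. Csf2, the cytokine GM-CSF, was at 4.64, 5.99 and 5.50 in PBEF+/- and at 8.71, 8.03 and 6.09 in VILI PBEF+/-, with 5.43 to 6.19 in VALI and 5.27 to 6.70 in Control. Tslp, an epithelial cytokine, was at 6.44, 6.12 and 6.27 against 8.46, 7.88 and 6.76, with up to 6.80 in Control. Id3, an inhibitor of basic helix-loop-helix factors, was at 11.74, 11.95 and 12.00 against 12.67, 12.61 and 12.67, above all 11 other arrays. Tfpi2, an inhibitor of serine proteases, was at 4.40, 4.23 and 4.88 against 7.50, 7.23 and 5.05, with up to 5.38 in Control. For Csf2, Tslp and Tfpi2, VILI PBEF+/- replicate 3 was below the highest Control array, so the rise rests on VILI PBEF+/- replicates 1 and 2. Scnn1g, a subunit of the epithelial sodium channel that clears alveolar fluid, was lower, at 11.39, 11.27 and 11.30 against 10.78, 10.67 and 10.96.

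Among genes that were apart and lower, Kif26b, a kinesin, was at 7.49, 6.76 and 4.58 in PBEF+/- and at 3.28, 3.52 and 4.15 in VILI PBEF+/-, a difference of -2.63 ± 0.87 (SE; adjusted p = 0.164, limma) as labelled and -3.48 without replicate 3. Wnt2, a ligand made by lung mesenchyme, was at 8.33, 8.16 and 6.03 against 4.31, 4.72 and 5.62. Lrat, which stores retinol as ester, was at 11.01, 11.21 and 9.03 against 8.12, 8.50 and 8.91. In all of these, replicate 3 was the lowest PBEF+/- array and VILI PBEF+/- replicate 3 the highest ventilated array, and the gap between them was 0.43, 0.41 and 0.12. Of 14 clock genes, 2 were apart and higher and 0 apart and lower as labelled, against 8.47% and 10.8% of all genes. Without replicate 3, 1 passed higher (Bhlhe40) and 1 lower (Per3), beside 8.75% and 10.2% of all genes. Both depended on replicate 3, as did 55.5% of all genes passing higher and 61% of those passing lower.

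Markers of cell types were measured in the same bulk RNA, in which fewer cells of a type and less RNA per cell cannot be told apart. Neutrophil markers were apart and higher in 5 of 12 (8.47% of all genes were) and passed higher in 7 without replicate 3 (8.75% of all genes did). Of those 7, 2 depended on replicate 3 (55.5% of all genes passing higher did). Csf3r, the receptor for the granulocyte growth factor G-CSF, was at 7.26, 8.58 and 10.43 in PBEF+/- and at 10.95, 11.02 and 11.16 in VILI PBEF+/-. The mean deviation of the 12 markers from their 14-array means was -2.15 to 1.63 in PBEF+/-, highest in replicate 3, and 1.58 to 1.89 in VILI PBEF+/-, so these markers moved with the inflammatory lists, replicate 3 included. Their part in those results was not tested. B cell markers went the other way, with 4 of 7 apart and lower (10.8% of all genes were) and 1, Cd79b, passing lower without replicate 3 (10.2% of all genes did). Cd79b, a chain of the B cell receptor complex, was at 9.71, 10.02 and 8.86 against 8.45, 8.32 and 7.30.

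Airway and alveolar markers gave small differences. The club cell proteins Scgb1a1 and Scgb3a2 were apart and lower, Scgb3a2 at 14.47, 14.51 and 14.27 in PBEF+/- against 13.86, 14.12 and 13.75, and 4 of 8 club cell markers passed lower without replicate 3, 1 of them dependent on it. Of 9 ciliated cell markers 4 passed lower and 3 depended on it. Of all genes 10.2% passed lower, and 61% of those depended on it. None of 11 alveolar type II markers passed, and Sftpc, surfactant protein C, was at 15.55, 15.53 and 15.64 against 15.38, 15.47 and 15.47. The lung marker was thus high on all 6 arrays. Skeletal muscle markers were uneven within the ventilated group: Myh1, a fast myosin, was at 8.42 in VILI PBEF+/- replicate 2 and between 2.59 and 2.69 in the other 5 arrays. Fat markers were lowest in PBEF+/- replicate 2 (mean deviation -2.78) and at 1.76 and 1.73 in VILI PBEF+/- replicates 1 and 2.

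Nampt, which encodes PBEF, did not separate the groups. It was at 9.34, 9.21 and 10.71 in PBEF+/- and at 10.79, 10.62 and 9.28 in VILI PBEF+/-, a difference of 0.48 ± 0.44 (SE; unadjusted p = 0.297, adjusted p = 0.519, limma) as labelled and 0.96 without replicate 3 (adjusted p = 0.111, limma). PBEF+/- replicate 3 was with the higher arrays and VILI PBEF+/- replicate 3 with the lower, and this held for all 3 Nampt probe sets (10.33 and 9.34 on the second, 7.54 and 5.50 on the third). Of the 11 NAD genes tested, 3 were apart and higher and passed without replicate 3 (8.75% of all genes passed higher), 1, Nmnat2, was apart and lower, and the list median was -0.20 as labelled and -0.27 without replicate 3. Nmnat2, which makes NAD from its mononucleotide, was at 6.64, 5.95 and 6.21 against 5.59, 5.68 and 5.78. Nnmt, which methylates nicotinamide, was at 8.54, 8.32 and 9.48 against 10.15, 10.36 and 9.63, and the deacetylase Sirt1 at 9.94, 10.32 and 10.32 against 10.65, 10.82 and 10.67. Bst1, an ectoenzyme that uses NAD, was at 7.05, 7.87 and 8.72 against 8.74, 9.21 and 9.05, and Sirt3, the mitochondrial deacetylase, was lower and depended on replicate 3.

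The difference between VILI PBEF+/- minus PBEF+/- and VALI minus Control, which share no array, was tested as an interaction. VILI PBEF+/- was the only group aged 8 to 12 weeks, so PBEF+/- and age cannot be told apart in it. VALI replicate 4, at 0.160 on the scale given above, lay in the range of the Control arrays (0.082 to 0.255). That array is part of every VALI minus Control value and every single interaction given here, and its weight in them was not tested gene by gene. No gene passed in limma, as labelled (smallest adjusted p = 0.508, with 634 genes at an unadjusted p under 0.05) or without replicate 3 (1367 such genes). Leaving out both PBEF+/- replicate 3 and VALI replicate 4 also gave 0 interactions. Among the 994 genes that passed higher without replicate 3, VALI minus Control was above 0 in 910, and among the 1163 lower genes it was below 0 in 1089. The share of all tested genes on either side of 0 was not counted, so nothing further is read from these counts. The smallest interaction p-values belonged to Lix1l, Pik3ip1, Cbr3, Chd1 and Zfp319. Chd1, a chromatin remodeller, was at 8.91, 8.74 and 8.92 in PBEF+/- and at 9.68, 9.39 and 9.60 in VILI PBEF+/-, with a VALI minus Control difference of -0.12 and an interaction of 0.82 (0.85 without replicate 3).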

How the data were processed

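Total RNA of whole mouse lung was hybridised to 14 Affymetrix mouse arrays. Each array was deposited by the authors as log2 values of 45101 probe sets. MAS5 and GCRMA are the tools that the submitters' notes list, with neither version nor role, so the background correction behind the low values is unknown. The medians of the arrays ran from 4.60 to 4.75 and the values were used as they stand. Precision is limited by the number of arrays.

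Probe sets took their names from the annotation of the platform in GEO (34958 with 1 symbol, 932 with several, 9211 with none), and 34754 Entrez identifiers matched RefSeq of GRCm38.p6. Each of the 11360 genes tested is its probe set with the highest mean, above the array median in at least 3 arrays. limma 3.58.1 (R 4.3.3) fitted 4 group means with a trended variance. Benjamini-Hochberg adjustment ran over the whole table, with a threshold of 0.05. A gene was said to depend on PBEF+/- replicate 3 where it passed without that array and the array's value was at or beyond the nearest ventilated array. Replicate numbers were not used to pair the arrays in the main fit. Deviations of same-numbered arrays from their group means correlated at -0.22, -0.19 and -0.35. Deviations within a group cancel and PBEF+/- replicate 3 stood apart, so these values cannot decide whether the arrays were paired.

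The members, the 48 gene lists and the rule for named genes were chosen with earlier results of these data known. The rule names Nampt and Il6, the smallest p-values, the largest differences among genes whose groups were apart or that depended on replicate 3, the genes in which VILI PBEF+/- replicate 3 differed most from the nearest of its group, and up to 5 genes of each list by p. Csf2, Tslp, Hspa1a, Hspa1b, Hspd1 and Hsph1 were named after their values were seen. The model was checked on simulated data whose spread left out PBEF+/- replicate 3 and VALI replicate 4, so that check does not describe the comparison as labelled. Alternatives were other filters, probe set rules, normalization, variance models, array weights, covariates and left-out arrays.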

Additional observations from a re-analysis of the deposited data

Results flagged for a closer look

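Only the 69 genes whose difference the text gives were searched for opposite orders, so the count is not one over all tested genes. In 3 of them every VILI PBEF+/- array was on 1 side of every PBEF+/- array and every VALI array on the opposite side of every Control array. These 3 had been named for their small interaction p-values. Their interactions were tested in limma and none passed. Cbr3, a carbonyl reductase, was lower in VILI PBEF+/- than in PBEF+/- (log2 difference -0.39) and higher in VALI than in Control (0.82), an interaction of -1.22 with an adjusted p of 0.508. Lix1l was higher in the former (0.60) and lower in the latter (-0.37), an interaction of 0.97 with an adjusted p of 0.508. Zfp319, a zinc finger protein, had differences of 0.36 and -0.50, an interaction of 0.86 and an adjusted p of 0.554. On another of its probe sets Zfp319 differed by -0.36 between VILI PBEF+/- and PBEF+/-.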

How the results depend on the processing

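As labelled, the count of 0 genes for VILI PBEF+/- against PBEF+/- stayed at 0 under most alternatives, the replicate block included, where the interaction count was also 0 and 1665 genes depended on PBEF+/- replicate 3. It was 1 with every probe set tested on its own, 1 with the mean of a gene's probe sets, and 3363 with array weights, which weighted PBEF+/- replicate 2 (0.182) below replicate 3 (0.26) and VILI PBEF+/- replicate 1 highest (8.72). Array weights also gave 20 interactions and 796 genes that depended on replicate 3. That count was 760 with no filter, 681 with only the 6 arrays and 611 with the sex pattern as a covariate. Leaving out 1 array gave 0 to 2157 genes for the comparison (12 without VILI PBEF+/- replicate 3, 2157 without PBEF+/- replicate 3, 0 without any other) and 0 interactions in every case. The number that depended on replicate 3 ran from 18 (without PBEF+/- replicate 2) to 1834 (without PBEF+/- replicate 1), with 224, 212 and 613 without VILI PBEF+/- replicates 1, 2 and 3. Without both PBEF+/- replicate 3 and VALI replicate 4, 3003 genes passed. Of the alternatives added after seeing the data, female-pattern arrays alone gave 1 interaction, and leaving out replicate 3 of both PBEF+/- groups gave 2082 genes and 9 interactions. The causes were not tested. Of the 69 genes whose difference the text gives, only Sftpc turned its sign under any of these settings (0.0131 with the mean of its probe sets). The setting with every probe set kept each of these genes on the probe set used in the main fit. It therefore could not show a turned sign on another probe set, such as that given above for Zfp319.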
